A study of Mus musculus with 75 samples.

Results

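Large outermost domains are the late-G1 domains longer than 1000 kb that lie inside no other late-G1 domain, and 817 of the 10899 domains called in late G1 met this rule. Domains are stretches of chromosome whose DNA contacts itself more often than it contacts its surroundings, and they are read from Hi-C, which ligates and sequences pairs of DNA ends that lay close together in the nucleus. In the loop extrusion model, the ring complex cohesin reels chromatin into a growing loop until it meets the DNA-binding protein CTCF. A loop call that joins the edges of a domain, at the corner of the domain in a contact map, and a stripe running into the domain from an edge are read as traces of that process. Domains can nest, so an outermost domain is the top of a hierarchy of smaller ones.

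The cells were uninduced G1E-ER4, mouse erythroid precursors of strain 129, derived from a line that lacks the transcription factor GATA1; every group shared that background. No expression values were used, so the erythroid label was not checked against marker genes. Nocodazole at 200 ng/ml, a drug that blocks the spindle, held them in pro-metaphase for 7 to 8.5 h. After release, flow sorting gave pro-metaphase cells at 0 min, ana/telophase cells at 25 min, early-G1 cells at 60 min, mid-G1 cells at 120 min and late-G1 cells at 240 min. Hi-C had 2 replicates per stage, ChIP-seq for CTCF had 2 per group except pro-metaphase, which had 3, and ChIP-seq for the cohesin subunit Rad21 had 2 per group. Both ChIP sets also held asynchronous cells. Cells of all stages went through the same kind of drug arrest, and they are of a single cell line.

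The deposited lists pool the replicates of a stage, so no spread between replicates exists and no p-value is given. Intervals in parentheses are 95% intervals that cover counting error over domains, edges or features only. The lists grew from 2509 domains in pro-metaphase to 5531, 9210, 10286 and 10899 at the later stages, and from 84 loops to 908, 7029, 9714 and 11340. Read totals per stage are unknown from these lists, so differences in depth and differences between stages cannot be told apart in any count across stages. Positions are in build mm9, counted from 1, and edges lie on a grid of 10 kb.

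The 817 domains made up 21.7% of the 3772 outermost domains and covered 1215 Mb, which was 58.9% of the 2063 Mb covered by late-G1 domains of any kind. Their median length was 1440 kb (1410 to 1490), with quartiles of 1180 and 1920 kb and a range of 1010 to 4180 kb. Length and nesting chose them and are given as description. At the threshold, 12 members had the shortest length of 1010 kb, and 14 other outermost domains had exactly 1000 kb. Another 452 late-G1 domains exceeded 1000 kb but lay inside a longer one. Each of these therefore lies inside a member, and its sequence and contents are also counted for that member. Intervals of members and nested domains are thus not independent. These 452 nested domains and the 1024 outermost domains of 500 to 1000 kb serve below as the nearest kinds of domain, beside all 10899.

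Large outermost domains were found on all 20 chromosomes in the lists. Chromosomes 1 and 3 had 61 each, chromosome 19 had 24 and chromosome X had 33. They took 64.0% of the summed length of outermost domains on chromosome 3 and 39.5% on chromosome X, the lowest share of any chromosome. They were often next to each other: 70.9% of their 1634 edges (68.6 to 73.1) had the facing edge of another outermost domain within 20 kb, and 42.1% (39.7 to 44.5) had that of another member. In addition, 375 members overlapped another member in part, so members share sequence and edges, and the edges come to 1422 distinct positions.

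The 5 longest were domains on chromosome 3 from 116640001 to 120820000 (4180 kb), chromosome 12 from 66270001 to 70220000 (3950 kb), chromosome 14 from 99520001 to 103410000 (3890 kb), chromosome 17 from 59050001 to 62930000 (3880 kb) and chromosome 10 from 122650001 to 126330000 (3680 kb). They were poor in loops. In late G1 the chromosome 14 domain held 2 loops and the other 4 held 0, and none of the 5 held a stripe, while they held 7, 9, 12, 7 and 5 domains in the order given. None had both proteins at both edges in late G1.

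Both edges of a late-G1 member were taken as called together at a stage when 1 domain of that stage had its start and its end within 20 kb of the member's. Most members were first called as 1 domain in G1. Pro-metaphase gave 23 members (2.82%, 1.79 to 4.19) and ana/telophase another 72 (8.81%). Early G1 added 240 (29.4%), mid G1 added 213 (26.1%), and 269 were called in late G1 alone (32.9%, 29.7 to 36.3).

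Cumulatively, 2.82% of large outermost domains had been called by pro-metaphase, 11.6% (9.51 to 14.0) with ana/telophase added, 41.0% (37.6 to 44.5) by early G1 and 67.1% (63.7 to 70.3) by mid G1. The same shares over all late-G1 domains were 5.53%, 22.4%, 51.4% and 68.2%. Large outermost domains were therefore below the background up to early G1, with intervals that did not reach it, and level with it by mid G1. Outermost domains of 500 to 1000 kb had shares of 2.93%, 18.9%, 51.7% and 70.6%, and nested domains over 1000 kb had 1.99%, 9.96%, 38.9% and 62.4%. Nested domains over 1000 kb had intervals that overlapped those of the members at every stage, while the shorter outermost domains stood above the members in ana/telophase and early G1.

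**Figure D1:**
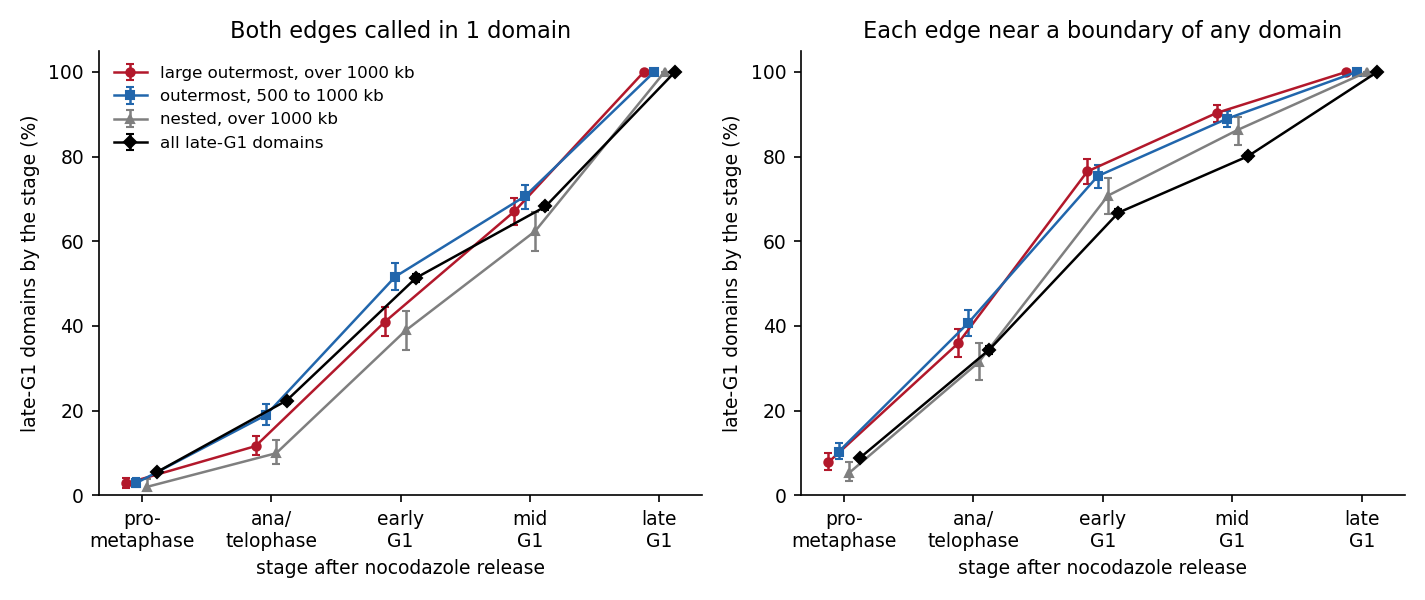
Share of late-G1 domains (y axis, %) whose edges had been called by each stage (x axis), as both edges of 1 domain (left) or with each edge near a boundary of any domain (right), for large outermost domains, outermost domains of 500 to 1000 kb, nested domains over 1000 kb and all late-G1 domains; bars are 95% binomial intervals. By mid G1 67.1% of large outermost domains had been called as 1 domain, and 90.3% had a boundary near each edge, a looser rule that every called domain meets. Late G1 is 100% by construction.

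Boundaries at the edges were listed before the domain that joined them in many members. The reverse order could not occur, since a domain that joins both edges also places a boundary at each. The running share also lets each edge meet a boundary at a different stage. Each edge had come within 20 kb of a boundary of some domain, not necessarily the same one, for 7.83% of members in pro-metaphase, and the running share was 35.9% at ana/telophase, 76.5% at early G1 and 90.3% (88.1 to 92.3) at mid G1, against 80.1% of all late-G1 domains by mid G1. Outermost domains of 500 to 1000 kb were close to the members, at 40.7%, 75.4% and 89.0% (86.9 to 90.8) from ana/telophase to mid G1, and nested domains over 1000 kb had 86.3% by mid G1. In early G1 itself 267 members (32.7%, 29.5 to 36.0) had a boundary at each edge but no domain joining them, and in mid G1 196 members (24.0%) did. The corresponding share of all late-G1 domains was 13.3% in early G1 and 10.9% in mid G1, that of outermost domains of 500 to 1000 kb was 21.0% and 17.3%, and that of nested domains over 1000 kb was 29.0% and 19.7%. Only 38 members (4.65%) had no boundary near either edge in early G1.

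Few members not yet called at a stage lay within a longer domain of that stage. Of the 501 members without a matching domain in early G1, 62 lay inside a longer early-G1 domain (12.4%, 9.62 to 15.6) and 342 had at least 1 early-G1 domain running across an edge (68.3%, 64.0 to 72.3). The longest early-G1 domain inside such a member spanned a median of 40.4% of its length, and all domains inside together covered a median of 85.5%. Among the 727 members unmatched in ana/telophase these medians were 20.6% and 34.7%, and among the 794 unmatched in pro-metaphase they were 8.17% and 9.14%. Of those 794, 375 had no pro-metaphase domain inside and 174 were crossed by one at an edge. By early G1 the interior of an unmatched member was thus mostly covered by smaller domains.

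Members were chosen by their late-G1 call, so only the 335 called by early G1 could lack a call at a later stage. The most frequent courses after the 269 late-only members were a call in mid and late G1 (213 members), a call from early G1 on (192) and a call from ana/telophase on (50). In 77 of those 335 members a call was missing at a later stage. Of the 77, 48 were first called in early G1, missing in mid G1 and called again in late G1. Where a domain matched, its edges were often shifted: both edges were identical in 3 of 23, 16 of 90, 86 of 316 and 109 of 487 matches from pro-metaphase to mid G1.

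A call at all 5 stages was found for 16 members. The 5 longest of them lay on chromosome 13 from 59940001 to 62390000 (2450 kb), chromosome 12 from 50300001 to 52420000 (2120 kb), chromosome 8 from 110120001 to 112070000 (1950 kb), chromosome 13 from 58220001 to 59940000 (1720 kb) and chromosome 5 from 21310001 to 22890000 (1580 kb). The pair on chromosome 13 share the edge at 59940000, where the strongest late-G1 CTCF peak, from 59941844 to 59942580, had a fold enrichment of 58.2 and the strongest Rad21 peak one of 15.8. Both proteins were also listed at that edge in pro-metaphase. The chromosome 12 member had no peak of either protein within 20 kb of either edge at any of the 5 stages, although both edges were called at each of them. Of these 5, only the chromosome 8 member had both proteins at both edges in late G1.

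The 5 longest members first called in late G1 included 3 of the 5 longest members of any kind, those on chromosomes 12, 14 and 17. The other 2 were on chromosome 3, from 10350001 to 13870000 (3520 kb) and from 90530001 to 94040000 (3510 kb). All 5 had a boundary near each edge by early G1. Their interiors held 6, 3, 11, 6 and 10 domains in early G1 and 9, 12, 7, 10 and 19 in late G1, in the order chromosome 12, 14, 17 and the pair on chromosome 3. By early G1 31.9% of the 166 members over 2000 kb had been called (24.9 to 39.6), against 49.3% of the 223 members up to 1200 kb (42.6 to 56.1).

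The pooled number of domains listed inside members rose at each stage. The median number of domains inside a member, within its edges widened by 20 kb and not counting one that matched its edges, was 1, 2, 5, 6 and 6 from pro-metaphase to late G1, with a late-G1 range of 0 to 28. Per Mb of member the pooled count was 0.821, 1.97, 3.45, 3.82 and 4.01 (3.90 to 4.12). Most of the gain came by early G1. Over all late-G1 domains the rate was 0.756, 1.63, 2.48, 2.71 and 2.76 per Mb. Their median length was 370 kb and their median number of domains inside in late G1 was 0, so the level is not comparable with that of members. The whole list grew from 2509 to 10899 domains. The rise inside members cannot be told apart from that growth. Members with no domain inside numbered 385, 182, 55, 31 and 25 at the 5 stages. In late G1 the density was close to the 3.84 per Mb (3.70 to 3.98) in outermost domains of 500 to 1000 kb, while at pro-metaphase and ana/telophase it was lower, 0.821 and 1.97 against 1.11 and 2.51 per Mb. Nested domains over 1000 kb were below the members at each stage, with 0.566 and 1.41 per Mb at those first stages and 3.62 (3.47 to 3.78) in late G1.

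Domains inside most members were themselves nested. The late-G1 domains inside a member formed a median of 3 levels, with up to 10, and only 25 members had none. A median of 2 domains made up the outer level (quartiles 2 and 3), the longest of them spanned a median of 55.1% of the member (53.1 to 56.8), and together the domains inside covered a median of 97.0%. Levels and cover are not given for other kinds of domain, so they cannot be called particular to the members.

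The 3 members with the most late-G1 domains per Mb were on chromosome 9 from 60610001 to 61760000 with 14 inside, on chromosome 13 from 45630001 to 47390000 with 20, and a member on chromosome 18 with 14. The chromosome 9 member held 0, 1, 10 and 12 domains at the earlier stages, and the chromosome 13 member held 7, 13, 9 and 16. At the other end, the 3 longest of the members with 0 domains inside were on chromosome 14 from 106930001 to 110120000 (3190 kb), chromosome 5 from 5820001 to 8040000 (2220 kb) and chromosome 12 from 107330001 to 109370000 (2040 kb). Earlier lists did place domains there, with 6 in early G1 and 3 in mid G1 inside the chromosome 14 member and 6 at each of those stages inside the chromosome 12 member. These 3 held 1, 4 and 2 late-G1 CTCF peaks and no loop.

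Loops, pairs of sites whose contact exceeds the local expectation, were counted inside a member when both ends of the strongest pixel fell within its edges widened by 20 kb, so the longest could exceed the member slightly. Their density from pro-metaphase to late G1 was 0.0333 (0.0242 to 0.0446), 0.277, 2.26, 3.18 and 3.75 per Mb (3.65 to 3.86), each loop being counted once for each member that holds it. In late G1 outermost domains of 500 to 1000 kb held 6.75 loops per Mb (6.56 to 6.94) and nested domains over 1000 kb held 2.42 (2.30 to 2.55). Large outermost domains were thus sparser in loops than shorter outermost domains, with intervals apart from ana/telophase on. They were richer than nested domains over 1000 kb, also with intervals apart, but those are parts of the members' own sequence. The density of late-G1 CTCF peaks followed the same order, at 11.7 per Mb inside members against 18.0 in the shorter outermost and 8.49 in the nested domains, as did that of Rad21 peaks, at 6.63 against 10.3 and 4.82; the part of these densities in the loop counts was not tested.

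**Figure D2:**
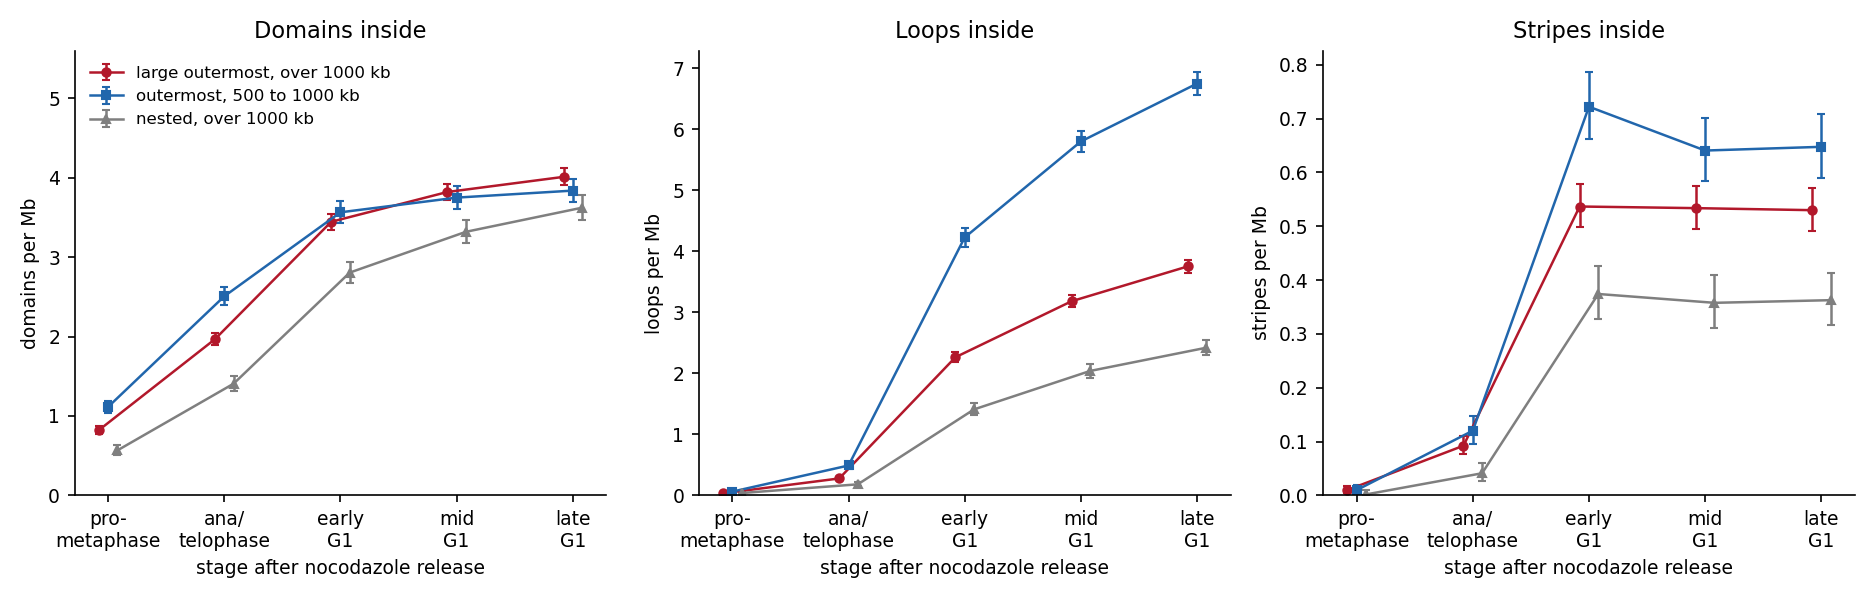
Domains, loops and stripes per Mb (y axes) inside large outermost domains, outermost domains of 500 to 1000 kb and nested domains over 1000 kb at each stage (x axis); points are pooled counts over pooled length and bars are 95% Poisson intervals. In late G1 domain density lay between 3.62 and 4.01 per Mb in the 3 groups, while loop density was 3.75 per Mb in large outermost domains, 6.75 in the shorter outermost domains and 2.42 in nested domains.

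At least 1 loop lay inside 31, 192, 459, 534 and 563 members at the 5 stages. The late-G1 count is 68.9% of members (65.6 to 72.1), against 54.4% of all late-G1 domains, most of which are shorter. Of the late-G1 loops that lay inside a member or crossed an edge, 98.3% (97.9 to 98.6) lay inside at least 1 member. These were 4524 different loops, or 39.9% of the list. A loop crossed an edge of 82 members (10.0%, 8.06 to 12.3). The inside share is not given for other kinds of domain, so it cannot be called particular to the members. Members held 309 of the 571 late-G1 loops over 500 kb. Even so, loops were short relative to their domain, with a median size of 170 kb (160 to 170). The longest loop in each of the 563 members with a loop spanned a median of 27.8% of the member's length (25.7 to 29.8); it reached 50% in 114 members and 90% in 30.

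Loops were unevenly spread over the members. The 254 members with no late-G1 loop held 3.76 CTCF peaks per Mb (3.58 to 3.95) and 1.96 Rad21 peaks per Mb, against 15.6 and 8.91 in the 563 with a loop. They still held 2.84 late-G1 domains per Mb (2.69 to 3.01), against 4.58 in members with a loop, and 62.2% had been called by mid G1 (55.9 to 68.2), against 69.3% (65.3 to 73.1). Across the 817 members, which share libraries and in part sequence, loops per Mb had a Pearson r of 0.81 and a Spearman rho of 0.85 with CTCF peaks per Mb. The number of domains inside had r = 0.42 and rho = 0.38 with length, whereas the number of loops had r = 0.03 and rho = -0.02.

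**Figure D3:**
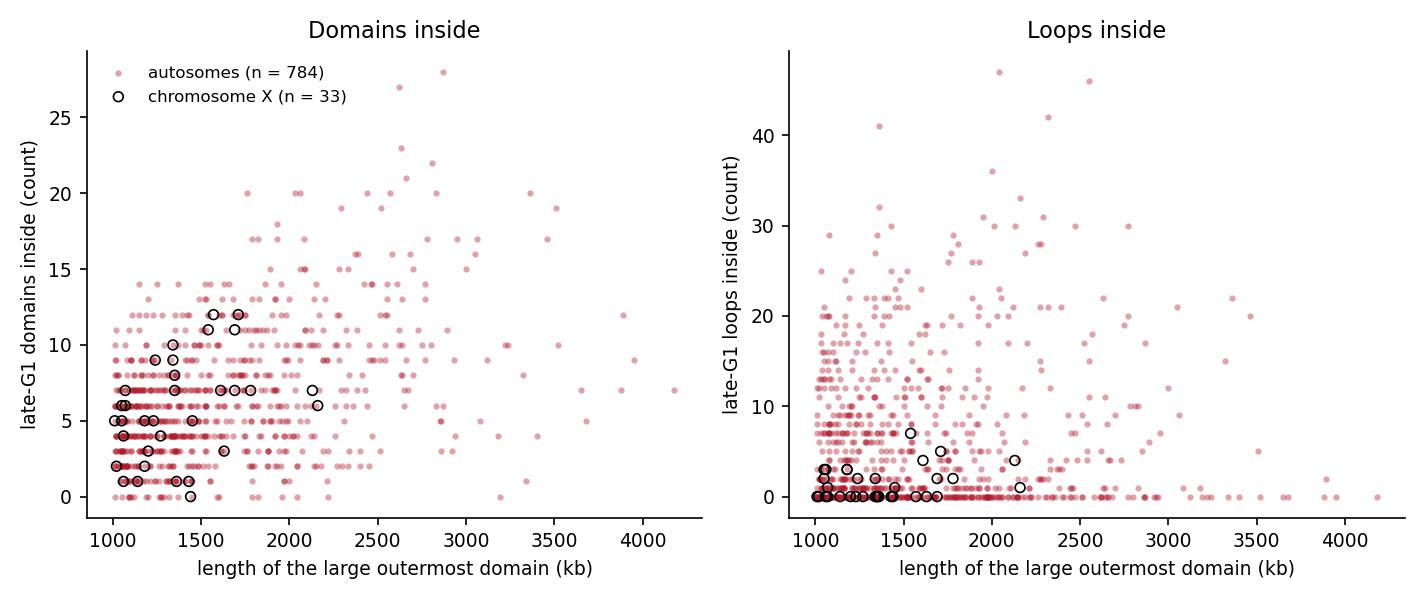
Number of late-G1 domains (left) and loops (right) inside each of the 817 large outermost domains (y axes, counts) against its length in kb (x axes); filled points are autosomal members (n = 784) and open circles those on chromosome X (n = 33). Domains inside range from 0 to 28 and are more numerous in longer members, while loops inside range from 0 to 47 with r = 0.03 against length, and the 5 longest members hold 0 to 2.

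Stripes, lines of contact that run from 1 anchor over a long stretch, are read as cohesin extruding from a fixed side. At least 1 stripe lay inside 10, 95, 330, 333 and 328 members at the 5 stages. The number therefore did not grow after early G1, but the lists themselves held 1753, 1754 and 1745 stripes in early, mid and late G1, so a fixed list length cannot be told apart from a plateau. In late G1 40.1% of members (36.8 to 43.6) held a stripe, against 12.1% of all late-G1 domains, 32.7% of outermost domains of 500 to 1000 kb (29.8 to 35.7) and 26.3% of nested domains over 1000 kb (22.3 to 30.6). These shares are per domain and not corrected for length. Per Mb, members held 0.530 stripes (0.491 to 0.571), fewer than the 0.648 of the shorter outermost domains (0.590 to 0.709). Nested domains over 1000 kb held 0.363 per Mb (0.316 to 0.414) and all late-G1 domains 0.364 (0.348 to 0.379), both below the members. The 639 different late-G1 stripes inside members were 36.6% of the list and had a median body of 330 kb (310 to 340), against 310 kb in the whole list, with the longest at 1630 kb.

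In most members with a stripe, none was anchored at an edge. A stripe anchored at an edge and running into the domain was found in 0, 11, 50, 49 and 54 members at the 5 stages. The 54 in late G1 are 6.61% of members (5.00 to 8.54), against 2.98% of all late-G1 domains and 8.20% of outermost domains of 500 to 1000 kb (6.60 to 10.1). Stripes from both edges were found in 5 members in late G1, named here after their values were seen: chromosome 2 from 130090001 to 131360000 and from 168060001 to 170340000, chromosome 7 from 120040001 to 121190000, chromosome 16 from 30550001 to 31940000, and a member of 1110 kb on chromosome 18. Of the 328 members with a stripe, 325 also held a loop, against 68.9% of all members. In the other direction, 57.7% of the 563 members with a loop held a stripe (53.5 to 61.8). Members with a stripe held 19.6 CTCF peaks per Mb, against 6.50 in those without, and the part of this density was not tested.

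A corner loop, which joins the edges of the domain to within 20 kb, was rare. None was listed in pro-metaphase or ana/telophase, a count of 0 of 817 that, with the limit set at 3 counts, allows a share of up to 0.367%, and 1, 7 and 8 members had one in early, mid and late G1. The late-G1 share was 0.979% (0.424 to 1.92), against 5.31% of all late-G1 domains and 2.15% of outermost domains of 500 to 1000 kb (1.35 to 3.23). Nested domains over 1000 kb had 1.77% (0.767 to 3.46), and the intervals of both groups overlap that of the members. The members' share was 0.490% with 10 kb allowed and 1.84% with 40 kb. These shares are not corrected for length. A corner loop has to span nearly the whole domain, and all late-G1 domains had a median length of 370 kb, against 1440 kb in members. Of the 11340 late-G1 loops only 571 exceeded 500 kb. All 8 members with a late-G1 corner loop had CTCF and Rad21 at both edges, so these were 8 of 198 such members (4.04%, 1.76 to 7.81) and 0 of the 392 members with both proteins at 1 edge and 0 of the 227 with both at none.

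The 5 with the highest late-G1 ratio of observed to expected contact, a value of the authors, had these corner loops. On chromosome 10 from 90740001 to 92480000 the ratio was 9.26 in late G1 and no corner loop was listed before. On chromosome 5 from 119220001 to 120560000 it was 9.77 in mid G1 and 9.25 in late G1. On chromosome 3 from 123210001 to 124290000 it was 11.4 and 9.21, on chromosome 7 from 144660001 to 146030000 it was 10.9 and 7.83, and on chromosome 2 from 50170001 to 51770000 it was 9.47 and 7.51, in mid and late G1 each time.

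At the members on chromosomes 10, 5 and 7 both proteins were listed at both edges before the corner loop. The chromosome 10 member had CTCF at both edges from pro-metaphase on, Rad21 at both from ana/telophase on and the domain from mid G1 on. The chromosome 5 member had CTCF at both edges from pro-metaphase on, both edges in 1 domain and Rad21 at both edges from ana/telophase on, and its corner loop from mid G1 on. Its strongest late-G1 CTCF peaks lay from 119223905 to 119224221 and from 120552752 to 120553229, with fold enrichments of 29.1 and 71.1. The chromosome 7 member had CTCF at both edges in pro-metaphase, Rad21 in ana/telophase, the domain in early G1 and the corner loop in mid G1; it held no other loop and no domain inside in any G1 stage. At the members on chromosome 3 and chromosome 2, Rad21 at both edges and the corner loop were first listed together in mid G1. The other 3 members with a late-G1 corner loop, added after their values were seen, were on chromosome 2 from 168060001 to 170340000 with a ratio of 5.63, chromosome 13 from 47390001 to 48550000 with 5.00, and chromosome 4 from 139200001 to 140230000, which had 5.07, 6.95 and 4.26 from early to late G1. The mid-G1 list had a corner loop at 2 members that had none in late G1, also named after their values were seen: the chromosome 8 member called at all 5 stages, with a ratio of 10.2, and a member on chromosome 19 from 35040001 to 36170000, with 2.49.

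CTCF peaks were listed at more edges than Rad21 peaks at every stage, with the widest gap up to early G1. The share of the 1634 edges with a CTCF peak within 20 kb was 34.9% in pro-metaphase (32.6 to 37.3), and at the later stages 61.8%, 64.5%, 66.2% and 65.1% (62.7 to 67.4). The share with a Rad21 peak was 2.51%, 25.9%, 28.4%, 43.8% and 48.8% (46.4 to 51.3) in the same order. Of all 13553 late-G1 boundaries 55.9% had CTCF, 43.0% had Rad21 and 42.4% had both. Large outermost domains had both proteins at 48.2% of edges (45.8 to 50.7), or 48.0% (45.3 to 50.6) when each of the 1422 positions was counted once as those boundaries were, and within 10 kb the 48.2% became 30.2%. Outermost domains of 500 to 1000 kb had CTCF at 68.2% of edges, Rad21 at 52.3% and both at 51.9% (49.7 to 54.0), and nested domains over 1000 kb had both at 43.0% (39.8 to 46.3), so the members lay between these groups, with intervals that overlapped those of each. The pro-metaphase CTCF list held 11604 peaks and the late-G1 list 33499, and for Rad21 the numbers were 596 and 18958, and the growth of the lists cannot be told apart from the courses at edges.

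Peaks were concentrated at the edge itself. Within 20 kb on either side of an edge, late-G1 CTCF peaks numbered 31.5 per Mb (30.2 to 32.9), against 12.6 per Mb at 100 to 300 kb inside and 14.2 at 100 to 300 kb outside. Rad21 peaks numbered 18.4 per Mb at the edge, 6.94 inside and 8.01 outside. The concentration was present in pro-metaphase, where CTCF peaks numbered 11.9 per Mb at the edge and 4.19 inside. The strongest late-G1 CTCF peak at an edge had a median fold enrichment of 25.5 (25.0 to 26.7), against 25.2 at all late-G1 boundaries with CTCF and 18.1 over all CTCF peaks. For Rad21 these medians were 12.0, 11.4 and 8.78, so bound edges of large outermost domains carried peaks of about the same strength as bound boundaries in general.

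**Figure D4:**
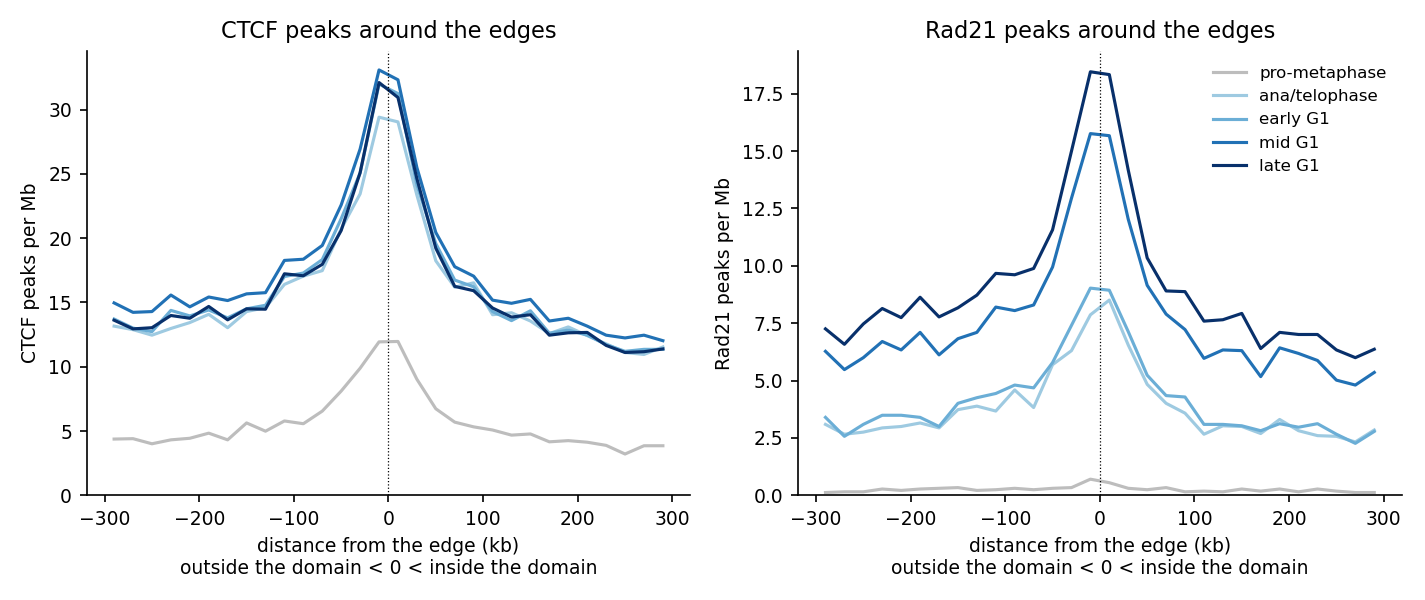
CTCF (left) and Rad21 (right) peaks per Mb (y axes) in bins of 20 kb by distance from the edges of large outermost domains in kb (x axes, negative outside the domain), with 1 line per stage. Both proteins peak at the edge at each stage, for CTCF in late G1 at 31.5 per Mb against 12.6 further inside, and the Rad21 lines rise from stage to stage.

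Both proteins at both edges were found in 0, 65, 75, 162 and 198 members from pro-metaphase to late G1. The late-G1 share of 24.2% (21.3 to 27.3) had an interval that included the 24.9% of all late-G1 domains. It was 27.9% in outermost domains of 500 to 1000 kb and 18.1% in nested domains over 1000 kb. The share depends on the distance allowed: it was 10.3% within 10 kb and 49.1% within 40 kb. Another 392 members (48.0%) had both proteins at 1 edge, and 227 (27.8%) at neither. CTCF with no demand on Rad21 was at both edges of 367 members (44.9%, 41.5 to 48.4) and at neither edge of 121 (14.8%).

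Members with more bound edges held more loops per Mb and were of similar length. Members with both proteins at both edges, at 1 edge and at none held 5.24, 3.48 and 2.93 late-G1 loops per Mb, and 52.0%, 39.3% and 31.3% of them held a stripe. Their median lengths were 1410, 1465 and 1450 kb. CTCF peaks inside fell in the same order, at 15.5, 11.2 and 9.30 per Mb, and their part in the loop counts was not tested. Peaks within 20 kb on the inner side of an edge count here and also in the grouping, so part of this order is built in. The time of the call differed less: 44.9%, 40.1% and 39.2% had been called by early G1, with overlapping intervals, and 76.8% (70.3 to 82.5), 65.1% (60.1 to 69.8) and 62.1% (55.5 to 68.4) by mid G1.

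In the 198 members with both proteins at both late-G1 edges, the stages of each feature were set side by side. CTCF was at both edges of 81 of them in pro-metaphase, and the running count was 175 at ana/telophase and 193 at early G1. Boundaries were near both edges of 24, 89 and 170 by the same stages, counts that include every member with both edges in 1 domain. Rad21 was at both edges of 0, 60 and 86, and by mid G1 of 155. Both edges were called in 1 domain in 4, 25 and 89, and by mid G1 in 152. The domain was called at a later stage than CTCF at both edges in 176 members (88.9%, 83.7 to 92.9), at the same stage in 15 and earlier in 7. Against Rad21 there was no such order: the domain was called later in 80, at the same stage in 51 and earlier in 67 (33.8%, 27.3 to 40.9). These members were selected on late-G1 peaks, so the late-G1 end of each course is fixed. The CTCF list held 33127 peaks in ana/telophase and 33499 in late G1, while the domain list held 5531 and 10899 domains. The order of CTCF and the domain cannot be told apart from this difference in list growth. It is not given for other late-G1 domains, so it cannot be called particular to these members.

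**Figure D5:**
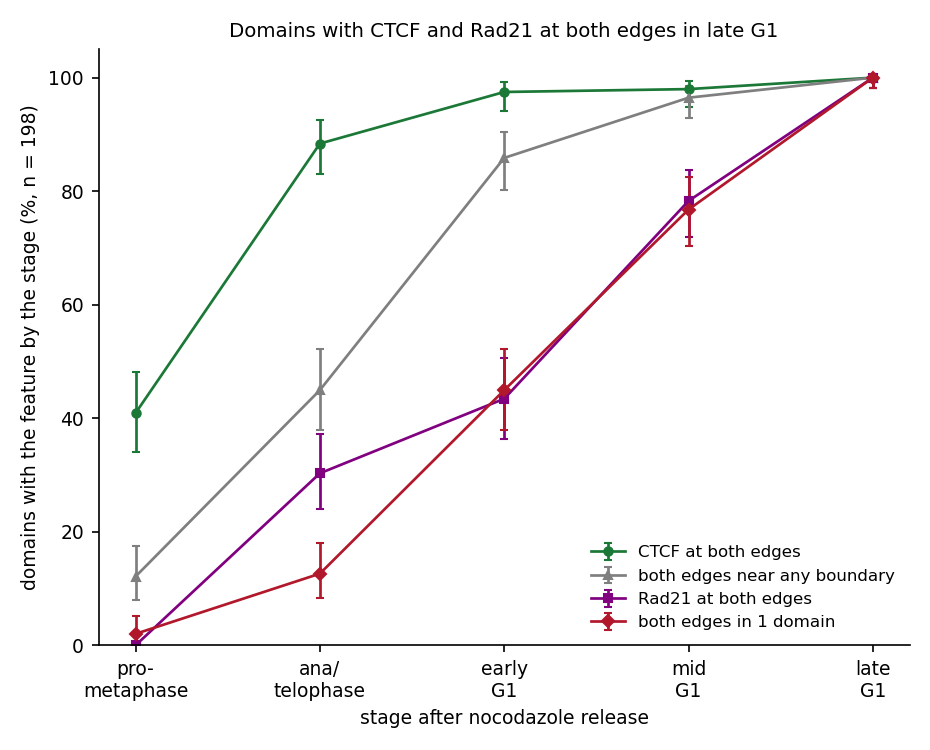
Share of the 198 large outermost domains with CTCF and Rad21 at both edges in late G1 (y axis, %) that had each feature by each stage (x axis); bars are 95% binomial intervals. CTCF at both edges was listed first, at 88.4% by ana/telophase, then boundaries near both edges. Rad21 at both edges stood at 30.3% by ana/telophase, against 12.6% for the call of both edges in 1 domain. By early G1 these courses were close, at 43.4% and 44.9%. The growth of each list cannot be told apart from this order.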

How the data were processed

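In situ Hi-C with DpnII and ChIP-seq for CTCF and Rad21 were done on sorted G1E-ER4 cells. HiC-Pro and Bowtie2 are named for Hi-C, and for ChIP-seq the names are MACS2 2.1.0, bedtools 2.27.1, SAMtools 1.7 and Bowtie 0.12.7, all on mm9, per the submitters' processing notes. No source used here names the caller of a domain, loop or stripe. The deposited lists hold 1 pooled list per stage. Peaks came from merged and downsampled replicates, per the peak names, with a deposited fold enrichment (a ratio), a deposited −log10 p and −log10 q. Loops carry deposited observed and expected contact signal and a deposited p-value. Stripe lists hold deposited contact signal and a strength (a ratio), per the file headers. The contact normalization and the read depth are likewise unstated.

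Outermost domains, matches within 20 kb, features inside edges widened by 20 kb, and peaks within 20 kb of an edge were computed in SciPy 1.17.1, pandas 2.3.3 and NumPy 2.4.6 under Python 3.11.15, and plotted in Matplotlib 3.10.9. Functions were tested on simulated data. Shares have exact binomial (Clopper-Pearson), rates exact Poisson and medians order-statistic 95% intervals. The members and the lists were chosen with earlier results of these data known. Regions were named by rank: the 5 longest members, the 5 longest called at all 5 stages, the 5 longest first called in late G1, the 5 with the highest late-G1 corner-loop ratio, and the 3 with the most and the 3 with the fewest domains inside per Mb. Exceptions are stated beside them. The members just inside and outside 1000 kb are given as counts. Genes and sequences were not used here, since the genome at hand is of another build. Alternatives were distances of 10 and 40 kb, members over 1500 kb, members outermost with edges widened by 20 kb, and stricter or other lists. Capture-C, RNA polymerase II and input were not analysed here.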

Additional observations from a re-analysis of the deposited data

How the results depend on the processing

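No test was made, and a value counted as moved when it left the 95% interval of the value reported; 24 of 40 alternatives stayed within it. The share of members called by mid G1, 67.1%, was 54.5% within 10 kb, 74.5% within 40 kb, 63.7% for the 375 members over 1500 kb, 90.3% with a boundary of any domain near each edge, and 63.2% with only outermost domains of the earlier lists. The median of 6 domains inside was 8 over 1500 kb and 2 for the outer level alone. Loops per Mb, 3.75, were 3.07 over 1500 kb and 3.60 for loops whose p was no more than 0.1 of the largest p in the list. The share with a stripe, 40.1%, was 28.9% for stripes of at least 300 kb, a setting added after the data were seen because the planned 100 kb removed none; the shortest was 130 kb. Both proteins at both edges, 24.2%, became 10.3% within 10 kb, 49.1% within 40 kb and 17.0% with asynchronous peaks; per edge, 48.2% became 30.2%, 69.5% and 39.5%. The causes were not tested. The corner-loop share stayed between 0.490% and 1.84%, and the 765 members outermost with edges widened by 20 kb gave values within every interval. No paired analysis was possible because replicates are pooled in the lists, which also left no replicate to leave out. Depth per stage is unknown, so a feature missing from an early list may be one that was not detectable.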

Other observations

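Earlier stages had large outermost domains of their own, part of which had no late-G1 counterpart. From pro-metaphase to mid G1 the lists held 69, 199, 577 and 762 outermost domains over 1000 kb, with median lengths of 1600, 1400, 1370 and 1440 kb. A late-G1 large outermost domain with both edges within 20 kb existed for 31.9% (21.2 to 44.2), 41.2% (34.3 to 48.4), 49.4% (45.2 to 53.6) and 55.9% (52.3 to 59.5) of them in the same order. Allowing any late-G1 domain gave 36.2%, 51.3%, 59.3% and 64.2%.

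Large outermost domains on chromosome X held domains at about the density of autosomal ones but fewer loops, stripes and bound edges. The 33 members there held 4.16 late-G1 domains per Mb (3.59 to 4.80), against 4.01 (3.90 to 4.12) in the 784 autosomal members, and 69.7% had been called by mid G1, against 67.0%. They held 0.991 loops per Mb (0.723 to 1.33), against 3.85 (3.74 to 3.96) on autosomes. A late-G1 stripe lay in 2 of the 33, against 41.6% of autosomal members, and both proteins were at 25.8% of edges (15.8 to 38.0), against 49.2% (46.7 to 51.7). CTCF peaks inside were also sparser, at 7.27 per Mb against 11.9, and their part in this was not tested. The contrast is not given for other late-G1 domains, so it cannot be called particular to large outermost domains.

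Members whose longest late-G1 loop spanned at least 90% of their length numbered 30 (3.67%, 2.49 to 5.20). Of these, 18 had both proteins at both edges (60.0%, 40.6 to 77.3), against 24.2% of all 817 members (21.3 to 27.3). The share is not given for other late-G1 domains, so it cannot be called particular to the members.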
